A study of Mus musculus with 4 samples.

Results

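Noncanonical forms of Polycomb repressive complex 1 (PRC1) were examined through 9 of their subunit genes, Pcgf1, Pcgf3, Pcgf5, Pcgf6, Rybp, Yaf2, Kdm2b, Bcor and L3mbtl2, in RNA from mouse ES cell-derived neurons made with or without the transcription factor St18. The genes were taken by symbol, without use of their values, and all 9 were found among the 34968 genes shared by the 4 libraries. Levels are in TPM, the share of a transcript in all transcripts of its library, scaled to a fixed total, which is already corrected for transcript length. All 9 were also among the 12975 genes tested, those that reached 1 TPM or more in 2 or more libraries. Gene positions are those of GENCODE M21 on GRCm38, the build in the submitters' processing notes.

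Both groups came from a male ES cell line of C57/BL6 strain carrying Dlx6-Cre and Ai9, a conditional tdTomato reporter, so that only cells that had expressed Dlx6-Cre were red. N/D cells carried Nkx2-1 and the tetracycline transactivator under the Nestin promoter, together with Dlx2 under the tetracycline response element. N/D/S cells carried the same Nkx2-1 construct and a response element driving Dlx2 and V5-tagged St18. The lines were selected with hygromycin and picked as clones, so that the genotype and the clone cannot be told apart. Embryoid bodies of both groups were grown with XAV-939 and SAG and were dissociated at day 12, when tdTomato+ cells were sorted for poly-A RNA sequencing. Each group had 2 libraries, which the labels call replicates without saying whether the cultures were separate, so p-values measure only the spread between these libraries, which may be technical.

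PRC1 places ubiquitin on histone H2A through the E3 ligases Ring1 and Rnf2, each held by 1 of the 6 Pcgf proteins. Canonical PRC1, built on Pcgf2 or Bmi1, uses a Cbx protein to bind trimethylated H3K27 and a Phc protein to compact chromatin. Noncanonical PRC1 holds Rybp or Yaf2 in place of the Cbx protein, and is named by its Pcgf protein. PRC1.1 holds Pcgf1 with Bcor and Kdm2b, which binds unmethylated CpG islands, PRC1.3 and PRC1.5 hold Pcgf3 or Pcgf5 with Auts2, and PRC1.6 holds Pcgf6 with L3mbtl2, Mga, Max and E2f6 and silences germline genes.

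Before the subunits, the libraries were compared as a whole. N/D replicate 1 listed 13426 genes above 0, against 17118 to 20750 in the other 3 libraries, and its correlation with them over the tested genes on the log2(TPM + 1) scale was 0.73 to 0.757, against 0.876 to 0.947 among the other 3. Neuronal markers summed to 2962 to 4647 TPM in every library, of which Tubb3 alone was 1509 to 2774 TPM. In N/D/S replicate 2, Tubb3 was at 2455 TPM. Dcx, Map2, Stmn2, Rbfox3 and Snap25 were each at their lowest there, at 17.9, 80.5, 606.2, 12.25 and 85.7 TPM. Markers of ES cells summed to 185.7 TPM in N/D replicate 2, 293.1 TPM in N/D/S replicate 2, 0.247 TPM in N/D replicate 1 and 3.60 TPM in N/D/S replicate 1. In N/D replicate 1, 5 of the 6 ES cell markers and all 6 glial markers were listed at 0. St18 itself was listed at 28.5 and 26.6 TPM in N/D and at 44.5 and 15.9 TPM in N/D/S, so that it did not separate the groups, and each direction given here between N/D and N/D/S rests on the labels. Because N/D replicate 1 stood apart, the fold changes of the subunits, of the related gene lists and of their named genes were also fitted without it.

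Among the 9 subunits, Yaf2, Pcgf1 and Kdm2b were the highest 3 in each of the 4 libraries, and Pcgf5 was the lowest in 3 of them. Mean TPM over the 4 libraries ran from 79.2 for Yaf2, 71.7 for Pcgf1 and 38.6 for Kdm2b, through 18.2 for L3mbtl2, 15.2 for Rybp, 14.6 for Pcgf6, 11.1 for Bcor and 11.0 for Pcgf3, to 1.40 for Pcgf5. No pair of neighbours in this order had separate ranges over the libraries. Kdm2b was above L3mbtl2, and Pcgf3 above Pcgf5, in 4 of 4 libraries, and every other pair of neighbours kept its order in only 2 or 3 of 4.

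**Figure D1:**
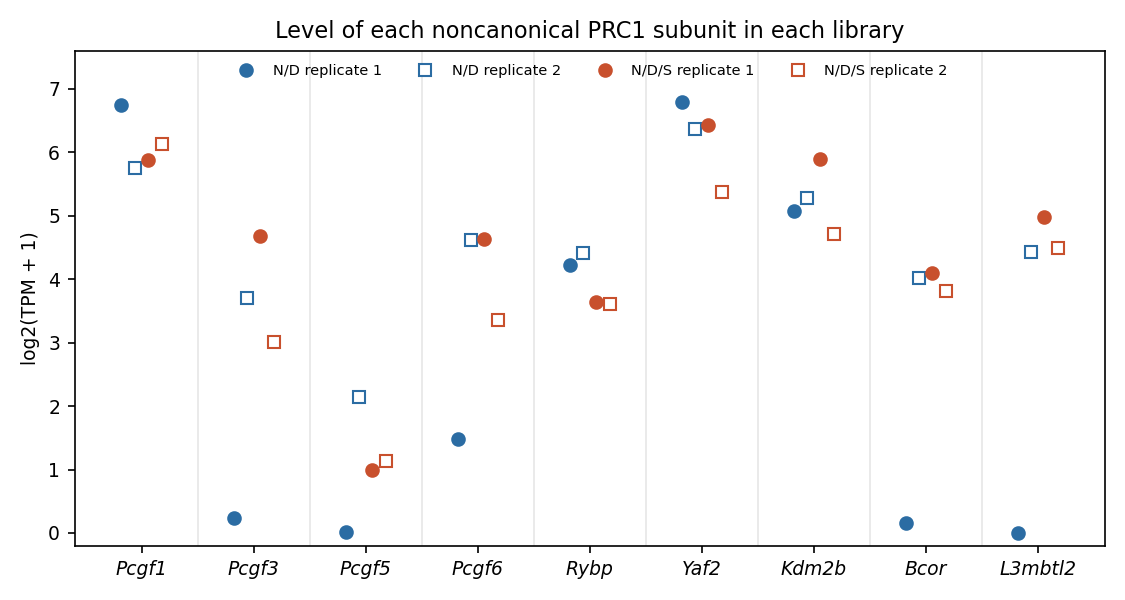
Level of each subunit gene in each of the 4 libraries, in log2(TPM + 1), with N/D in blue, N/D/S in orange, filled circles for replicate 1 and open squares for replicate 2. N/D replicate 1 lies below the other libraries for Pcgf3, Pcgf5, Pcgf6, Bcor and L3mbtl2, while Rybp is lower in both N/D/S libraries than in both N/D libraries.

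No subunit passed the test between N/D/S and N/D. limma, fitted to log2(TPM + 1) of all 12975 genes with Benjamini-Hochberg adjustment, called 0 genes higher in N/D/S (0% of those tested) and 0 genes lower (0%), and the adjusted p of all 9 subunits was 1. At an unadjusted p under 0.05 the same fit gave 8 genes (0.0617%), none of them a subunit, and limma with a trend in the prior variance called 5 genes higher and 1 lower. The fitted log2 fold change (positive where N/D/S is higher) was above 0 for 5 subunits and below 0 for 4, with a median of 0.13 against 0.26 over all tested genes. Without N/D replicate 1 the medians were -0.06 and -0.29, and over all alternatives the median of the subunits lay between -0.24 and 1.04. Scaling moved the median of all genes to 0.48 under upper quartile scaling and to -0.05 under quantile normalization. With fewer cells of a type and less RNA per cell, a bulk library would show the same difference, and these cannot be told apart.

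**Figure D2:**
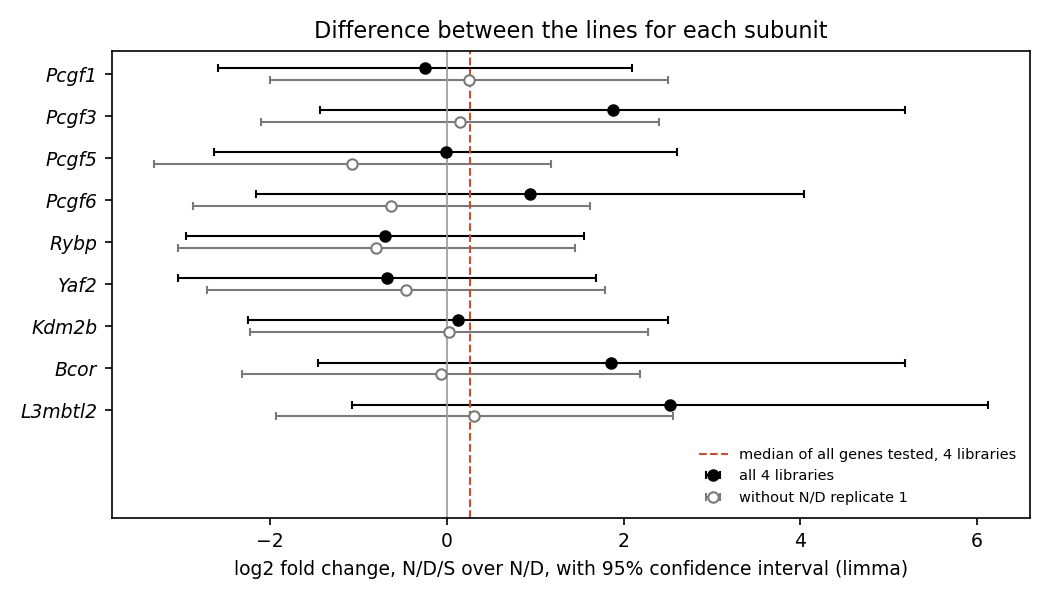
Log2 fold change for each subunit, positive where N/D/S is higher, with its 95% confidence interval from limma, for all 4 libraries (filled) and without N/D replicate 1 (open), with the median of all tested genes dashed. Every interval crosses 0. The values for Pcgf3, Bcor and L3mbtl2 move from 1.88, 1.86 and 2.53 to 0.15, -0.06 and 0.31 when N/D replicate 1 is left out. The open intervals rest on an SE of 1.15 given to every subunit alike, with N/D replicate 2 then the lone N/D library.

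Rybp (chr6:100228565-100287485, minus strand) and Yaf2 (chr15:93284278-93336935, minus strand) are paralogs that occupy the surface of Ring1 and Rnf2 that Cbx proteins use in canonical PRC1. Rybp was listed at 17.7 and 20.4 TPM in N/D and at 11.5 and 11.2 TPM in N/D/S. Both N/D/S libraries were below both N/D libraries, which was so for 1 of the 9 subunits and for 8.23% of the tested genes. The log2 fold change of Rybp was -0.70 (95% confidence interval -2.96 to 1.56, SE 0.96, n = 2 against 2; adjusted p = 1 in limma), although its own residual SD was only 0.10. limma draws the spread of a gene towards that of all genes, and without the filter on low values the unadjusted p of Rybp was 0.0151 and its adjusted p still 1. Its log2 fold change was -0.39 under upper quartile scaling, -0.81 under quantile normalization and -0.80 (-3.05 to 1.45) without N/D replicate 1. That last interval rests on an SE of 1.15 that limma gave to every subunit alike, with a lone N/D library left. A processed copy that the files list apart, Rybp-ps, was at most 0.0577 TPM. By rank among the tested genes of a library, Rybp lay at percentiles 59.5 and 52.9 in N/D and 38.0 and 52.0 in N/D/S, so that the replicate 2 libraries nearly tied.

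Yaf2 was listed at 109.9 and 81.4 TPM in N/D and at 85.1 and 40.4 TPM in N/D/S. The groups overlapped, since N/D/S replicate 1 was above N/D replicate 2. Its log2 fold change was -0.68 (-3.05 to 1.69, adjusted p = 1 in limma), and lay between -1.21 and -0.15 when each library was left out in turn. Yaf2 exceeded Rybp in 4 of 4 libraries, by 6.20 and 3.99 times in N/D and by 7.41 and 3.62 times in N/D/S. The difference between the groups in the log2 ratio of Rybp to Yaf2 was -0.02, with a two-sided exact permutation p of 1, where the smallest p that 2 against 2 libraries allow is 0.333.

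Together, Rybp and Yaf2 summed to 127.6 and 101.8 TPM in N/D and to 96.6 and 51.5 TPM in N/D/S, so that both N/D/S sums were below both N/D sums, with N/D replicate 2 and N/D/S replicate 1 only a few TPM apart. Of 11 canonical PRC1 genes looked at for comparison, 10 were tested, of which 6 were above 0 and 4 below, with a median log2 fold change of 0.10 and 0 called by limma. Cbx7, a reader of trimethylated H3K27, was listed at 0 and 25.5 TPM in N/D and at 97.8 and 10.3 TPM in N/D/S. Its fitted fold change was the highest of these, 2.70 (-1.53 to 6.92, adjusted p = 1 in limma), but it was 0.33 without N/D replicate 1, where Cbx7 was at 0, and 1.13 without N/D/S replicate 1, where it was highest. Without N/D replicate 2 it was 5.06, again with the value at 0 as the only N/D library. Cbx6 had the lowest, -1.32 (-3.70 to 1.07, adjusted p = 1 in limma), which was -0.84 without N/D replicate 1, and in that fit the median of the 10 genes was 0.04.

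The members specific to PRC1.1 differed in kind. Pcgf1 (chr6:83077869-83080855, plus strand), which holds the complex together, was listed at 106.4 and 53.1 TPM in N/D and at 57.8 and 69.4 TPM in N/D/S. N/D replicate 1 was the highest, and both N/D/S values lay between those of N/D. Its log2 fold change of -0.24 (-2.59 to 2.10, adjusted p = 1 in limma) turned to 0.08 under upper quartile scaling and to 0.25 without N/D replicate 1.

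Kdm2b (chr5:122870665-122989823, minus strand), an H3K36 demethylase whose CXXC zinc finger binds unmethylated CpG, was listed at 32.7 and 37.9 TPM in N/D and at 58.6 and 25.2 TPM in N/D/S. Of the N/D/S values, 1 lay above and 1 below the pair from N/D. The log2 fold change of Kdm2b was 0.13 (-2.25 to 2.50, adjusted p = 1 in limma). Exons of Kdm2b share 627 bases with exons of Rnf34 on the opposite strand, and Rnf34 was 1.54 and 28.3 TPM in N/D and 37.3 and 15.5 TPM in N/D/S. The use of strand in the quantification is not given in the sources used here, and without it reads in that stretch cannot be told apart.

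Bcor (chrX:12036740-12160355, minus strand), the corepressor that joins Pcgf1 to Kdm2b, was listed at 0.121 and 15.2 TPM in N/D and at 16.2 and 13.0 TPM in N/D/S. The other 3 libraries lay within 13.0 to 16.2 TPM while N/D replicate 1 lay near 0, so that PRC1.1 subunits split within that library, with Pcgf1 at its highest and Bcor at its lowest level. The log2 fold change of Bcor was 1.86 (-1.46 to 5.18, adjusted p = 1 in limma). It was -0.06 without N/D replicate 1, 0.66 under quantile normalization and 2.99 with a pseudocount of 0.1. Of 3 further PRC1.1 partners, Usp7, Skp1a and the Bcor paralog Bcorl1, limma called 0 in either direction, and their median fold change of 0.54 was -0.42 without N/D replicate 1. Bcorl1 was listed at 0 and 2.43 TPM in N/D and at 3.83 and 0.495 TPM in N/D/S, and all 3 partners were lowest in N/D replicate 1.

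Pcgf3 (chr5:108461232-108506976, plus strand) and Pcgf5 (chr19:36348309-36460970, plus strand) are close paralogs that hold PRC1.3 and PRC1.5. Pcgf3 was listed at 0.177 and 12.0 TPM in N/D and at 24.7 and 7.04 TPM in N/D/S. The groups overlapped, and the log2 fold change of 1.88 (-1.43 to 5.19, adjusted p = 1 in limma) was 0.15 without N/D replicate 1, 0.70 under quantile normalization and 2.86 with a pseudocount of 0.1. Pcgf5 was listed at 0.016 and 3.40 TPM in N/D and at 0.991 and 1.20 TPM in N/D/S. Both N/D/S values of Pcgf5 lay between the N/D values, and its log2 fold change of -0.01 (-2.63 to 2.61, adjusted p = 1 in limma) took the opposite sign under median-of-ratios and upper quartile scaling and under smaller pseudocounts, and was -1.07 both under quantile normalization and without N/D replicate 1.

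Of 7 partners of PRC1.3 and PRC1.5 tested, limma called 0, 6 had a fold change above 0 and 1 below, and their median of 0.39 was -0.05 without N/D replicate 1. Auts2, which turns these complexes towards transcription in neurons, was listed at 3.52 and 24.6 TPM in N/D and at 23.8 and 6.99 TPM in N/D/S. Fbrsl1, an Auts2 paralog, was listed at 0 and 32.7 TPM in N/D and at 54.0 and 18.2 TPM in N/D/S. Like Pcgf3 and Pcgf5, both genes were lowest in N/D replicate 1, and their groups overlapped.

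Pcgf6 (chr19:47033617-47050906, minus strand) and L3mbtl2 (chr15:81663889-81688315, plus strand) define PRC1.6. Pcgf6 was listed at 1.80 and 23.6 TPM in N/D and at 23.8 and 9.19 TPM in N/D/S. N/D replicate 1 was lowest and N/D replicate 2 about equal to the highest N/D/S library, and the log2 fold change of 0.94 (-2.17 to 4.04, adjusted p = 1 in limma) was -0.63 without N/D replicate 1 and 0.04 under quantile normalization. Pcgf6 was about equal in N/D replicate 2 and N/D/S replicate 1, the libraries in which ES cell markers summed to 185.7 and 3.60 TPM, and the part of such cells in its level was not tested.

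L3mbtl2, an MBT-domain protein that compacts chromatin, was listed at 0 and 20.5 TPM in N/D and at 30.6 and 21.6 TPM in N/D/S. Both N/D/S libraries were above both N/D libraries, which was so for 1 of the 9 subunits and for 8.69% of the tested genes, but N/D/S replicate 2 was above N/D replicate 2 by little more than 1 TPM. The fitted log2 fold change of 2.53 (-1.08 to 6.13, unadjusted p = 0.141, adjusted p = 1 in limma) depends on the pseudocount of 1 because of the value at 0, and leaving out N/D replicate 1 gave 0.31. The fit that omits N/D replicate 2 leaves the library at 0 as the only N/D library. It gives every subunit the same SE of 1.15, whatever the subunit's own spread. In that fit the log2 fold changes were 4.74 for L3mbtl2, 3.79 for Bcor and 3.61 for Pcgf3. Exons of L3mbtl2 share 1023 bases with exons of Chadl on the opposite strand. Chadl was listed at 27.9 and 16.7 TPM in N/D and at 9.95 and 8.56 TPM in N/D/S, so it was highest in the library where L3mbtl2 was at 0, and the part of the overlap in either value was not tested.

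The 8 partners of PRC1.6 tested split evenly, with 4 above and 4 below 0, a median of 0.11 and 0 called by limma, and without N/D replicate 1 the split was 1 above and 7 below, with a median of -0.49, where 71% of all tested genes were below 0. Mga, the large DNA-binding subunit, was listed at 1.96 and 7.61 TPM in N/D and at 12.9 and 7.64 TPM in N/D/S. Its dimer partner Max was listed at 29.3 and 8.70 TPM in N/D and at 9.37 and 5.91 TPM in N/D/S. In N/D replicate 1, Max was at its highest and Mga at its lowest level. E2f6, the repressive E2F factor of the complex, was listed at 29.2 and 51.4 TPM in N/D and at 67.3 and 15.8 TPM in N/D/S, and its groups overlapped. Tfdp1, the dimer partner of E2f6, was 1.34 TPM in N/D replicate 1, against 43.5 to 138 TPM in the other libraries.

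The germline genes known as targets of PRC1.6 were mostly below the level tested. Of 12 such genes, 10 had less than 1 TPM in at least 3 of the 4 libraries and were not tested. Tdrkh, a Tudor-domain protein that binds piRNA-pathway proteins, was listed at 0 and 36.3 TPM in N/D and at 56.7 and 13.3 TPM in N/D/S. Zcwpw1, a histone methylation reader of meiosis, was the other gene tested, at 0.209 and 2.37 TPM in N/D and at 2.14 and 0.205 TPM in N/D/S. limma called neither, and Mael, which was not tested, reached 1.42 TPM in N/D/S replicate 2 alone. The library with the lowest Pcgf6 and L3mbtl2, N/D replicate 1, listed the other 10 germline genes at 0.0115 TPM or less. L3mbtl2 at 0 thus stood beside no germline gene above 0.209 TPM, in a library where 17.8% of genes that had 10 TPM or more in every other library were under 1 TPM.

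Promoters of these genes were compared because Mga and Max bind the E-box CACGTG and E2f6 binds E2F sites. RefSeq promoters on GRCm38.p6 were matched for 6 of the 9 subunits (all but Pcgf1, Rybp and Yaf2) and for 11 of the 12 germline genes (all but Majin), and the 250 bases before each start site were searched for CACGTG and for the E2F core GCGGGA, on both strands. The E-box stood in 7 of the 11 germline genes (63.6%), in 0 of the 6 subunits, and in 7.69% of the 16991 matched genes of the files. The E2F core stood in 4 of 11 germline genes (36.4%), in 2 of 6 subunits (33.3%) and in 24.4% of all matched genes. The 2 PRC1.6 subunits, 2 germline genes with both motifs and the expressed Tdrkh with neither are shown, each 5′ to 3′ along its own strand, with E-boxes and E2F cores (GCGGGA or its reverse TCCCGC) in capitals. L3mbtl2 lies on the plus strand (chr15:81663639-81663888), Pcgf6 on the minus strand (chr19:47050907-47051156), Mael on the minus strand (chr1:166238745-166238994), Sycp3 on the plus strand (chr10:88459337-88459586) and Tdrkh on the plus strand (chr3:94412994-94413243).
L3mbtl2: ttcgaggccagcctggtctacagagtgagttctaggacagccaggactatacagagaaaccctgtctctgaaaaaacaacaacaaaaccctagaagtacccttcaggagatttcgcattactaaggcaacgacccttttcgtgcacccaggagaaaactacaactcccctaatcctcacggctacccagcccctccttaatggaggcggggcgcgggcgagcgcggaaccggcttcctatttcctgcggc
Pcgf6: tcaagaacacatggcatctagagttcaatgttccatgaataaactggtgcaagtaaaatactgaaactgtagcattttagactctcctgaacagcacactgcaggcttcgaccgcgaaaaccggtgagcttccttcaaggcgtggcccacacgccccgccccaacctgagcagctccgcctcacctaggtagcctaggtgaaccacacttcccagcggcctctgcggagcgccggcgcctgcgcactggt
Mael: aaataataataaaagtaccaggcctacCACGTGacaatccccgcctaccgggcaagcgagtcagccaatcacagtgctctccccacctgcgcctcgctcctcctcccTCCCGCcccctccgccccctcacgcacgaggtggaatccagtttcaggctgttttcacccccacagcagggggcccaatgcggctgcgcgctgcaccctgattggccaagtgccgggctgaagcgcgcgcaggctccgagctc
Sycp3: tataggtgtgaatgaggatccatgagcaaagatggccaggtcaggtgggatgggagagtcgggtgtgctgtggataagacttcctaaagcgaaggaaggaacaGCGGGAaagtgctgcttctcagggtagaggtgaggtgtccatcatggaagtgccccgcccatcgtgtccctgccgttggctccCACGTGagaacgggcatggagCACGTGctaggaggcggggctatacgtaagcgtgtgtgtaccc
Tdrkh: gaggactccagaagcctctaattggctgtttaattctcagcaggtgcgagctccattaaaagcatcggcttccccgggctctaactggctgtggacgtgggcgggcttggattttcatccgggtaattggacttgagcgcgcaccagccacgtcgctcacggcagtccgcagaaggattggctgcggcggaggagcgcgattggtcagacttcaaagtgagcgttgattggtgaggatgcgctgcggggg
Of the 7 germline genes with an E-box, 0 reached the level tested, and of the 4 without one 2 did (50%). Among all matched genes, 74% of the 1306 with an E-box and 56.3% of those without one reached it. The windows were rich in CpG, with a median of 16.5 CpG in those of the subunits and 18.5 in those of the germline genes, against 6 over all promoters. These are matches of letters, and binding at them was not measured.

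The 6 Pcgf proteins compete for Ring1 and Rnf2, so the shares of their genes in the summed Pcgf TPM were compared. The complexes themselves were not measured. Pcgf1 made the largest share in every library, 58.2% and 36.1% in N/D and 36.4% and 49.5% in N/D/S. Pcgf6 made 0.987% and 16.0% in N/D and 15.0% and 6.55% in N/D/S, and Pcgf3 made 0.0967% and 8.13% in N/D and 15.5% and 5.01% in N/D/S. In all 4 libraries Pcgf1 thus exceeded each other noncanonical Pcgf gene. In N/D replicate 1, Pcgf3, Pcgf5 and Pcgf6 together made 1.09% of the summed Pcgf TPM.

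The noncanonical Pcgf genes made most of the total. Pcgf1, Pcgf3, Pcgf5 and Pcgf6 together made 59.3% and 62.5% in N/D and 67.5% and 61.9% in N/D/S, and the summed Pcgf TPM was 182.8 and 147.2 in N/D and 158.9 and 140.3 in N/D/S. The groups overlapped in both. The remainder was made by Pcgf2 and Bmi1. Pcgf2 made 15.9% and 21.5% in N/D and 13.1% and 34.5% in N/D/S. Bmi1 made 24.8% and 15.9% in N/D and 19.4% and 3.66% in N/D/S.

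**Figure D3:**
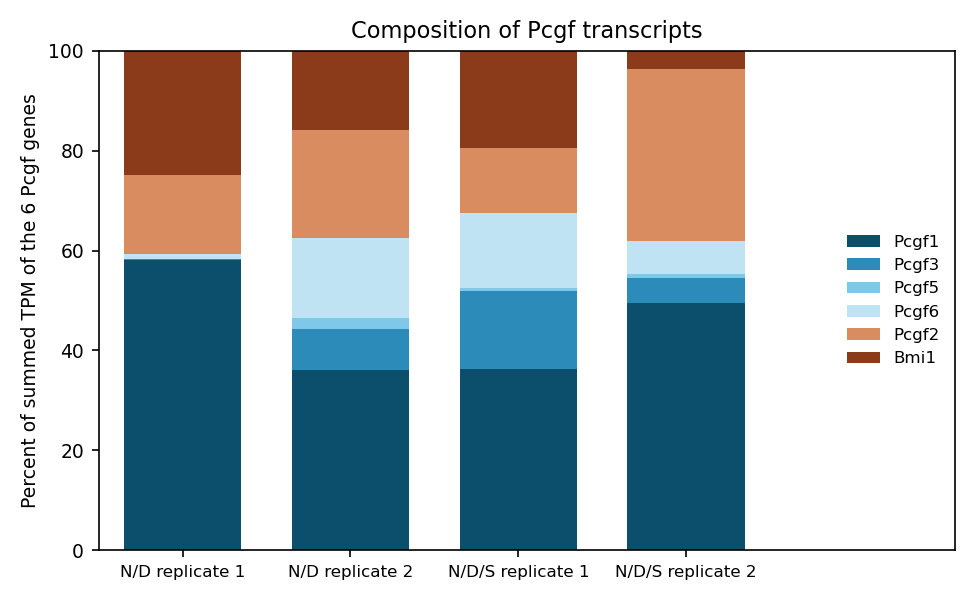
Share of each Pcgf gene in the summed TPM of the 6 Pcgf genes, in percent, stacked for each of the 4 libraries. The noncanonical genes are in blue, and Pcgf2 and Bmi1 are in brown. The noncanonical total lies between 59.3% and 67.5% in all 4 libraries, and in N/D replicate 1 it is nearly all Pcgf1.

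The catalytic subunits that all these complexes share were both lowest in N/D replicate 1. Ring1 was listed at 4.14 and 22.3 TPM in N/D and at 16.1 and 21.0 TPM in N/D/S. Rnf2 was listed at 23.4 and 109.4 TPM in N/D and at 141.5 and 40.1 TPM in N/D/S. The groups overlapped for both, and Rnf2 exceeded Ring1 in 4 of 4 libraries, by 1.91 to 8.81 times. Their log2 fold changes were 0.82 (SE 1.12) and 0.56 (SE 1.22), with an adjusted p of 1 in limma, and both turned without N/D replicate 1, to -0.27 and -0.53.

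N/D replicate 1 stood apart for the subunits as it did for other genes. Of the 9, 5 were lowest in that library (Pcgf3, Pcgf5, Pcgf6, Bcor and L3mbtl2), against 58.2% of all tested genes. In it 4 subunits were under 1 TPM, against 1 in N/D/S replicate 1 and 0 in the replicate 2 libraries. Of the 6 subunits with at least 10 TPM in each other library, Bcor and L3mbtl2 were under 1 TPM in N/D replicate 1, against 17.8% of genes of that level. On the log2(TPM + 1) scale the subunits in N/D replicate 1 differed from the mean of the other 3 libraries by a median of -1.40, from -4.64 for L3mbtl2 to 0.82 for Pcgf1, and the median over all tested genes was -1.01. A share of subunits near that of all genes is no result about the subunits.

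**Figure D4:**
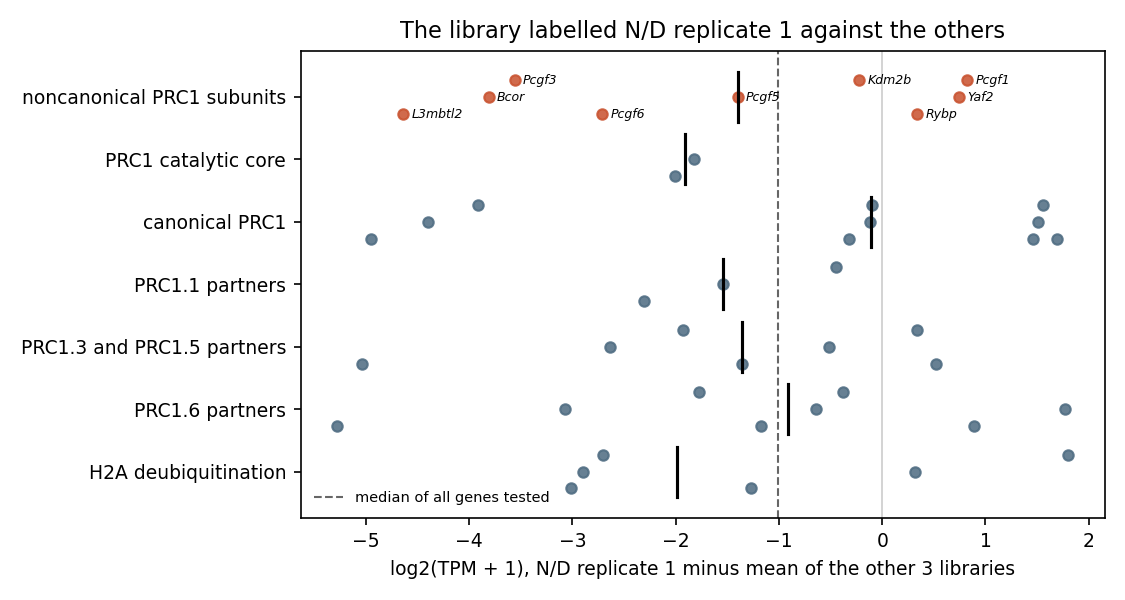
Difference in log2(TPM + 1) between N/D replicate 1 and the mean of the other 3 libraries for each tested gene (points) of the noncanonical subunits and 6 related lists, with each list's median (bar) and the median of all tested genes (dashed). The subunits run from -4.64 to 0.82, with Pcgf1, Yaf2 and Rybp above 0.

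The genes whose profile over the 4 libraries lay closest to the mean of the 9 subunits were Zfp330, Mpp3, Bcl2l1, Tbc1d19 and Pex5, with Euclidean distances of 0.0884 to 0.137 on the centred log2(TPM + 1) scale among 7795 genes of at least 10 mean TPM. That mean profile was -1.20 and 0.57 in N/D and 0.63 and 0.00 in N/D/S, so that it mainly separated N/D replicate 1 from the rest.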

How the data were processed

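RNA of 4 libraries, 2 N/D and 2 N/D/S, was sequenced on an Illumina NovaSeq in paired ends from TruSeq libraries. The authors quantified transcripts with kallisto 0.44.0 and used sleuth (submitters' processing notes, which also name GRCm38), and deposited a gene table of TPM for each library. How transcripts were summed to genes is not given in the sources used here. TPM keeps no depth, so the depth of the libraries is unknown and neither counting intervals nor a count test could be used.

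The 4 tables were joined by symbol after leaving out 24 symbols that had been turned into dates. Groups came from the labels. N/D/S was compared with N/D with limma 3.58.1 in R 4.3.3 on log2(TPM + 1), over genes that reached 1 TPM or more in 2 or more libraries. P-values were adjusted by Benjamini-Hochberg, and the threshold was 0.05. Fold changes are on that scale, which understates those of low genes. The script was tested on simulated data with an equal spread for all genes, a setting that does not speak for power in these libraries. Single ratios were compared with an exact permutation test. Alternatives changed the pseudocount, filter, scaling, prior variance, replicate block and libraries. The genes named are all 9 subunits, the genes of fixed lists of PRC1 partners, deubiquitinases and germline targets with the highest or lowest fold change of their list or as paralogs or partners of a subunit, and the 5 genes nearest the subunits' mean profile. Rnf34, Chadl, St18 and other partners and germline genes given with values were added after their values were seen. The subunits and the lists were chosen with earlier results of these data known. A comparison of Rybp and Yaf2 with the subunits they replace is not reported here.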

Additional observations from a re-analysis of the deposited data

How the results depend on the processing

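Over 28 results, 226 values were computed under alternatives, of which 195 were counted as unchanged. A subunit's fold change counted so if its sign and its call, where tested, held. The ratio of Rybp to Yaf2 needed only its sign, and most counts had to stay within a set factor. A Pcgf share had to shift by less than 1 SD of the N/D libraries. The median of the subunits had to shift by less than their median residual SD, so that a change of its sign could pass. The median of the subunits, 0.13, lay between -0.24 (at least 1 TPM in every library, 5 subunits) and 1.04 (without N/D replicate 2), and was 0.90 with a pseudocount of 0.1. A trend in limma's prior variance called 5 genes higher and 1 lower in N/D/S instead of 0 and 0, and none of them was a subunit. Pcgf5 turned from -0.01 to 0.17 with a pseudocount of 0.5 and with the natural log, 0.90 with a pseudocount of 0.1, 0.0837 under median-of-ratios and 0.0899 under upper quartile scaling, and Pcgf1 turned from -0.24 to 0.0824 under upper quartile scaling. Leaving out each library in turn gave log2 fold changes of -0.74 to 0.25 for Pcgf1, -1.07 to 1.04 for Pcgf5, -0.63 to 2.50 for Pcgf6, -0.0645 to 3.79 for Bcor and -0.47 to 0.72 for Kdm2b, and a difference of -0.53 to 0.49 (0.29 without N/D replicate 2) in the log2 ratio of Rybp to Yaf2. It gave 0 to 2213 genes called higher, 0 to 160 lower, 0 to 3 subunits and 0 to 8 genes of the PRC1 lists, in each case with calls only without N/D replicate 2, where the lone N/D library is assumed to vary like N/D/S. Subunits with groups that did not overlap numbered 1 to 3 lower in N/D/S, against 13.6% to 31.9% of all tested genes, and 1 to 5 higher, against 13.3% to 56.8%, where a gene that did not overlap with all libraries could not overlap with fewer. The counts of groups that did not overlap and the left-out values of the ratio and of the gene lists were added after seeing the data. The cause of these changes was not tested.

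The labels do not say that replicate numbers pair the libraries. Both replicate 1 libraries listed 35197 symbols and both replicate 2 libraries 35204, for which no reason is given. Same-numbered libraries did not deviate together over all tested genes (correlation 0.0197). Even so, summed markers of ES cells, glia, mesoderm and endoderm, neural progenitors and dividing cells were higher in replicate 2 than in replicate 1 of each group. For the last 2 lists many single markers did not follow the sum. In N/D/S, Sox2, Nes, Pax6, Vim, Mki67 and Top2a were lower in replicate 2, while Hes5, Fabp7, Ccnb1 and Cdk1 were higher. Fabp7 was at 179.1 and 505.6 TPM there. In N/D, Pax6 and Vim were lower in replicate 2 and the rest higher. Of the other lists, Pdgfra and Gata4, under 1 TPM in N/D/S, were lower in its replicate 2. A fit with the replicate block called 0 genes in either direction and gave -0.70 for Rybp (adjusted p = 1 in limma). With 2 libraries a group and unknown depth, the intervals of the subunits' differences were wide and their width depended on the filter and the prior (for Rybp -2.96 to 1.56, or -1.13 to -0.27 without the filter), so that a missed threshold does not show equal levels.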

Other observations

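Genes for removing the PRC1 mark from H2A were not described above. Of 6 tested, the deubiquitinases Bap1, Usp16 and Mysm1 and the Bap1 cofactors Asxl1, Asxl2 and Asxl3, 4 had a log2 fold change above 0 (N/D/S higher) and 2 below, with a median of 0.91 against 0.26 over all genes, and limma called 0. Without N/D replicate 1 the median was -0.12 against -0.29 over all genes. Bap1, the deubiquitinase that works with Asxl proteins, was listed at 11.7 and 85.1 TPM in N/D and at 111.8 and 87.1 TPM in N/D/S. Both N/D/S libraries were above both N/D libraries for Bap1, as for 8.69% of the tested genes, and both were below for Usp16, as for 8.23%. The log2 fold change of Bap1 was 1.59 (-1.26 to 4.45, adjusted p = 1 in limma). Leaving out N/D replicate 1 gave 0.21 for Bap1, and leaving out N/D replicate 2 gave 2.97. Usp16 was at -0.83 with all libraries and at -1.01 when N/D replicate 1 was left out. Of the 6 genes, 4 were at their lowest in N/D replicate 1, against 58.2% of all tested genes. The differences of all 6 from the mean of the other 3 libraries ran from -3.02 for Asxl1 to 1.80 for Mysm1 on the log2(TPM + 1) scale.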
